A study of Ovis aries with 7 samples.

Results

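Cyclooxygenases, prostaglandin D synthase and the prostaglandin F receptor were examined in the fetal sheep hypothalamus as 4 genes, PTGS1, PTGS2, PTGDS and PTGFR. All probes whose name or description gave one of these genes were taken, which found 5 of the 15008 probes on the array: 2 for PTGS2 and 1 each for PTGS1, PTGDS and PTGFR. The PTGDS probe is listed under the older symbol PGDS, and its RefSeq record belongs to PTGDS. No gene of the 4 lacked a probe. The 4 genes stand among 829 genes with a symbol. Of the 15008 probes, 13637 were left without a gene name, so a gene with no named probe may still be on the array.

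The samples were whole hypothalami of 7 chronically catheterised sheep fetuses in late gestation, 1 array per fetus. In the hypoxia group (3 fetuses) the ewe breathed gas low in oxygen for 30 min and normal gas for another 30 min. In the control group (4 fetuses of matched age) oxygen stayed normal for both periods. The tissue was taken 60 min after onset, from intact animals with no genetic change named in the labels. Slide 1 held all 3 hypoxia arrays, while the controls lay on slide 2 (replicates 1 and 2) and slide 3 (replicates 3 and 4). Slide and hypoxia therefore cannot be told apart. Hypothalamic peptide genes were present as the tissue label says, with 11 of the 12 measured genes of a hypothalamic list well above background on all 7 arrays and NR5A1 on 4 of 7. Among them was SST at 3.42 to 4.11 in hypoxia and 3.37 to 4.45 in controls. No neuronal or oligodendrocyte marker of the lists used had a named probe, although such genes may be among the unnamed probes.

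Prostaglandins are lipid signals made from arachidonic acid. The cyclooxygenases PTGS1 (COX-1, made steadily in many cells) and PTGS2 (COX-2, induced by cytokines and by neuronal activity, and also present at rest in brain) form the common precursor PGH2, which terminal synthases turn into single prostaglandins. PTGDS makes PGD2 and is also the secreted carrier known as beta-trace, abundant in meninges, choroid plexus and oligodendrocytes. PTGFR is the receptor for PGF2 alpha, and PTGER1 to PTGER4 are the receptors for PGE2. In fetal sheep, prostaglandins made in the brain are among the stimuli of ACTH release.

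The probes are shown because each value below is the signal of 1 oligonucleotide, 60 bases long. For PTGS1, PTGS2 and PTGFR 30 bases of the probe are printed, and for PTGDS and PTGER4 the whole probe, 5′ to 3′, as the scanner files give it. Capitals mark AATAAA or ATTAAA, the common forms of the polyadenylation signal.
PTGS1, bases 31 to 60 of A_70_P012596: tgtttttcatgaagttAATAAAatgctttt
PTGS2, bases 31 to 60 of A_70_P039256: ttggtgcctcagactatgtatgATTAAAtt
PTGS2, bases 25 to 54 of A_70_P039257: aaatgaaatttcATTAAAgagaaataactc
PTGFR, bases 1 to 30 of A_70_P039346: ggggattatatgtttcaaggcagattactt
PTGDS, A_70_P039426: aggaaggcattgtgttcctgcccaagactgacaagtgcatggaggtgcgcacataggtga
PTGER4, A_70_P041081: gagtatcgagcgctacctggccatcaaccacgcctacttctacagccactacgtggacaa
PTGER4, A_70_P041082: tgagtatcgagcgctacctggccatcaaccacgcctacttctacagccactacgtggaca

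AATAAA or ATTAAA occurred in 1211 of the 15008 probes (8.07%), read on the printed strand. On the other strand AATAAA occurred in 3.70% and ATTAAA in 2.44% of probes. The PTGS1 probe and both PTGS2 probes hold 1 of them each, while the PTGDS and PTGFR probes hold neither. The PTGS2 probes start at positions 3117 and 3301 of the same record as the files list them, 184 bases apart, and share no bases. The PTGER4 probes overlap by 59 of their 60 bases, so they are nearly 1 measurement made with 2 spots.

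Levels are given on 1 scale throughout: the log2 processed signal of a probe minus that of the 75th percentile of its array, so that 0 is the brightness of a fairly bright probe and each unit is a doubling. Levels of different probes are not compared with each other, since probes differ in how well they bind. Differences are hypoxia minus control from a limma fit over the 12711 probes that the scanner software marked well above background on 3 or more of the 7 arrays, with Benjamini-Hochberg adjustment over all of them. In whole tissue, fewer cells of a type and less RNA per cell cannot be told apart. In that fit 2 probes, 0.0157% of those tested, passed an adjusted p of 0.05, and none of the prostaglandin probes was among them. An unadjusted p under 0.05 was found for 15.7% of tested probes, 1990 in number, and for 0 of the 4 tested probes of PTGS1, PTGS2, PTGDS and PTGFR.

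PTGS1 was the only one of the 4 genes whose hypoxia and control values did not overlap. Its level was -0.94, -0.88 and -1.26 in hypoxia replicates 1 to 3, against -1.30, -2.30, -1.28 and -1.501 in control replicates 1 to 4. All 3 hypoxia values lay above all 4 control values, but the lowest of them, hypoxia replicate 3, nearly equalled the highest control, replicate 3. The same holds in this direction for 8.75% of all tested probes. The mean was -1.03 ± 0.20 in hypoxia (SD, n = 3) and -1.59 ± 0.48 in controls (SD, n = 4), a difference of 0.56 or 1.48-fold. The 95% interval ran from -0.04 to 1.17, and the adjusted p was 0.344 in limma. Control replicate 2 stood well below the other arrays. Without it the difference was 0.33, and without any other single array it was 0.49 to 0.68. Against control slide 2, which holds that array, the difference was 0.77, and against control slide 3 it was 0.36.

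PTGS2 varied more between fetuses than between groups. The probe that stands for the gene, A_70_P039256, had levels of -2.25, -1.64 and -2.44 in hypoxia, against -2.56, -3.30, -2.53 and -0.81 in controls. The controls held both the lowest array (replicate 2) and the highest (replicate 4), and the hypoxia values lay between them. All controls except replicate 4 lay below every hypoxia value, so the groups overlapped through that array alone. On the linear scale the 4 controls spanned 5.62-fold and the 3 hypoxia fetuses 1.74-fold. The control SD of 1.06 was higher than that of 97.7% of tested probes, and the hypoxia SD of 0.42 was at the 90.1st percentile. The mean was -2.11 ± 0.42 in hypoxia (SD, n = 3) and -2.30 ± 1.06 in controls (SD, n = 4). The difference of 0.19 had a 95% interval from -1.08 to 1.46 (adjusted p = 0.891 in limma).

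The direction of the PTGS2 difference turned with the controls used. It was 0.82 against control slide 2 alone (adjusted p = 0.282 in limma) and -0.44 against control slide 3 alone (adjusted p = 0.743). The control slides themselves differed by 1.26 (slide 3 minus slide 2), more than either differed from hypoxia. Without control replicate 4 the difference was 0.69, without control replicate 2 it was -0.14, and without hypoxia replicate 2 it was -0.05. None of these passed the adjusted threshold.

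**Figure D1:**
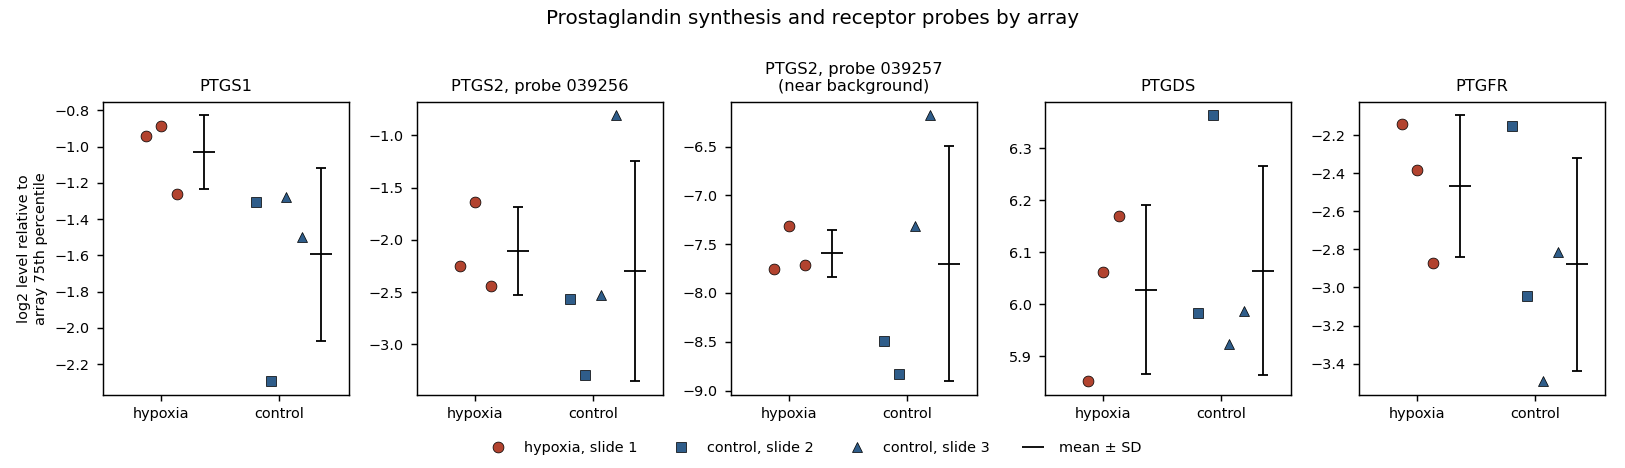
Levels of the 5 probes of PTGS1, PTGS2, PTGDS and PTGFR on each array, as log2 processed signal relative to the array's 75th percentile, with hypoxia fetuses left of control fetuses, symbols for the slide, and the mean and SD of each group as a bar beside the points. Each panel has its own vertical scale. The PTGS1 groups meet without overlap at -1.26 in hypoxia and -1.28 in controls. For PTGS2 probe A_70_P039256 control replicate 4 lies above all hypoxia values and the other controls lie below them.

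The second PTGS2 probe, A_70_P039257, was near background. It was well above background on 0 of 3 hypoxia arrays and on 2 of 4 control arrays, replicates 3 and 4, and so was not tested. Its processed signal was 12.04, 13.8 and 11.2 in hypoxia, against 5.74, 4.46, 18.3 and 32.8 in controls. Control replicate 4 was brightest and control replicate 2 dimmest, as with the other probe. By level, control replicate 3 (-7.311) nearly equalled the highest hypoxia array (-7.317) here. With the other probe its level lay below those of all hypoxia arrays. Over the 7 arrays the levels of the probes of PTGS2 correlated at r = 0.91, both being read from the same labelled RNA. No fold is given for it, because the mean of the control arrays lay below the lowest signal that counts as well above background.

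By Pearson's r, the named genes closest to PTGS2 over the 7 arrays, out of 721 compared, were BMP6 (r = 0.952), HBB (r = 0.947) and POMC (r = 0.944). BMP6 is a bone morphogenetic protein, HBB the beta chain of adult haemoglobin and POMC the precursor of ACTH. These likenesses are descriptions of 7 arrays that share slides, picked as the highest of 721 values. HBB stood at 3.68, 4.12 and 3.72 in hypoxia, against 2.94, 2.03, 2.49 and 5.20 in controls, with the highest and the lowest value on the same arrays as PTGS2. POMC was likewise highest in control replicate 4 (1.99) and lowest in control replicate 2 (0.71).

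**Figure D2:**
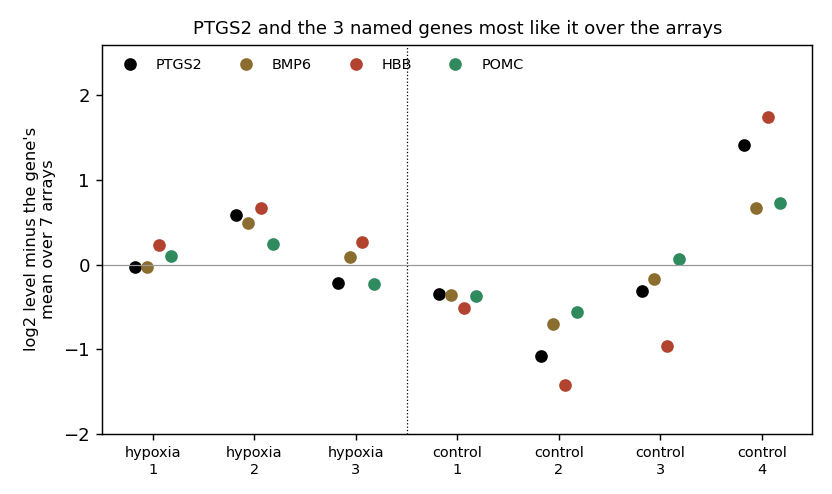
Levels of PTGS2, BMP6, HBB and POMC on each of the 7 arrays, as the log2 difference from each gene's own mean, with hypoxia arrays left of the dotted line. All 4 genes are highest on control replicate 4 and lowest on control replicate 2.

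Markers of other tissue were uneven on those arrays. The mean level of the 3 measured red cell genes (HBB, AHSP and CA1, of 5 listed) was -2.67 to -1.61 in hypoxia and -2.94 to -1.03 in controls, lowest in control replicate 2 and highest in control replicate 4. AHSP was also highest in control replicate 4 (-2.47), while CA1 was highest in control replicate 1 (-5.26). The lowest value was in hypoxia replicate 1 for AHSP (-4.64) and in hypoxia replicate 3 for CA1 (-8.01). The pituitary gene PRL stood at 1.13 in control replicate 4, against -5.14 to -4.11 in hypoxia and -3.80 to -3.46 in the other controls. Of the 5 pituitary genes on the array, POU1F1 was above background on 0 of 7 arrays and FSHB on 2. FSHB was likewise highest in control replicate 4 (-3.09), against -9.60 to -6.09 in the other controls and -8.49 to -7.46 in hypoxia. CGA and LHB did not follow PRL. CGA was highest in control replicate 3 (1.39) and stood at -2.51 in control replicate 4, and LHB stood at 2.44 to 2.69 in hypoxia and at 1.93 to 2.31 in controls. The mean of PRL, CGA and LHB was -2.36 to -0.44 in hypoxia and -2.67 to 0.31 in controls, highest in control replicate 4. The part of blood or pituitary tissue in the PTGS2 values was not tested.

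PTGDS was steady. Its level was 5.85, 6.06 and 6.17 in hypoxia, against 5.98, 6.36, 5.92 and 5.99 in controls. Control replicate 2 was highest, hypoxia replicate 1 was lowest, and the groups overlapped. The processed signal was 149790, 147019 and 169194 in hypoxia, against 130500, 166706, 176564 and 150530 in controls, with no spot marked saturated. The mean was 6.03 ± 0.16 in hypoxia (SD, n = 3) and 6.06 ± 0.20 in controls (SD, n = 4). The difference was -0.04, with a 95% interval from -0.37 to 0.30 (adjusted p = 0.923 in limma). Of the 4 genes it had the narrowest interval.

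Markers of tissues rich in PTGDS varied more widely between arrays, except TIMP1 in controls (SD 0.14). TTR, the transthyretin gene of choroid plexus, was the only gene of that list tested. It stood at -1.77, 3.49 and -0.08 in hypoxia, against 2.18, 3.69, 1.17 and 0.56 in controls. The mean level of 6 meningeal and fibroblast genes, of 13 listed, was -0.63 to 0.17 in hypoxia and -0.20 to 0.89 in controls. All 6 had differences below 0, with a median of -0.72, while 54.7% of all tested probes had differences above 0. The list was chosen with earlier results of these data known, so this count is not an independent result. IGF2 had the largest SD of the 6 in both groups. It stood at 0.28, 1.496 and 1.62 in hypoxia, against 2.59, 0.45, 2.86 and 3.76 in controls. The part of choroid plexus and meninges in the PTGDS level was not tested. The named genes most like PTGDS over the arrays were PYGM (r = 0.901), PAX4 (r = 0.894) and LGMN (r = 0.859).

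PTGFR had the level -2.14, -2.38 and -2.87 in hypoxia, against -2.15, -3.05, -3.49 and -2.82 in controls. The groups overlapped through control replicate 1, which nearly equalled the highest hypoxia value, and hypoxia replicate 3, which was below control replicates 1 and 4. The mean was -2.47 ± 0.37 in hypoxia (SD, n = 3) and -2.88 ± 0.56 in controls (SD, n = 4). The difference of 0.41, or 1.33-fold, had a 95% interval from -0.33 to 1.15 (adjusted p = 0.548 in limma). It was 0.13 against control slide 2 alone and 0.69 against control slide 3 alone, the reverse order of PTGS2, and the control slides differed by -0.56 (slide 3 minus slide 2). Without control replicate 3 it was 0.20, without hypoxia replicate 1 it was 0.25, and without control replicate 1 it was 0.65.

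Control SDs of PTGS1 and PTGFR, 0.48 and 0.56, were at the 86.6th and 90th percentile of tested probes, and that of PTGDS, 0.20, at the 50.3rd. The spread of PTGDS among controls was thus that of a typical probe. The named genes most like PTGFR were SLC25A26 (r = 0.926), SOD2 (r = 0.907) and AGTR1 (r = 0.902), and among those most like PTGS1 were MYL6 (r = 0.916) and LHB (r = 0.840). Between the 4 genes, r over the 7 arrays ran from -0.755 (PTGS1 and PTGDS) to 0.478 (PTGS1 and PTGFR), and was 0.453 for the cyclooxygenases.

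**Figure D3:**
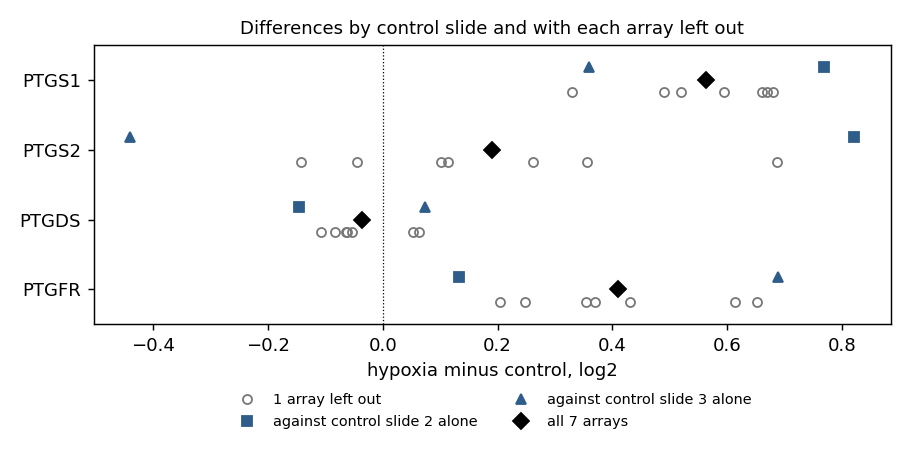
Hypoxia minus control differences (log2) of the 4 genes with all 7 arrays (black diamonds), against each control slide alone (blue square for slide 2, blue triangle for slide 3) and with each array left out in turn (open circles). PTGS1 and PTGFR stay above 0 in all of these fits, and PTGS2 and PTGDS lie on both sides of it.

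Beyond the 4 genes, 52 others of the pathway were listed, of which 6 had a named probe: the 4 PGE2 receptors, the prostaglandin transporter SLCO2A1 and ANXA2. No listed gene of arachidonic acid release apart from ANXA2 had one, and neither did any listed terminal PGE2, PGI2 or thromboxane synthase. Such genes may be among the 13637 probes left without a gene name. None of the 6 passed the adjusted threshold. At an unadjusted p under 0.05 there were 2 of 6 higher and 2 of 6 lower in hypoxia, against 8.75% and 6.91% of all tested probes. The higher genes were PTGER4 and PTGER2, and PTGER2 met the filter on dim probes only through the hypoxia arrays. With normexp background correction their unadjusted p was 0.052 and 0.33 in limma. The median difference was -0.01 for the 6 genes and 0.03 for all tested probes.

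PTGER4, the EP4 receptor that raises cyclic AMP, had hypoxia values above all control values with both of its probes. Probe A_70_P041081 stood at -5.36, -5.08 and -4.86 in hypoxia, against -6.03, -5.52, -5.93 and -5.82 in controls. All 3 hypoxia values lay above all 4 control values, as for 8.75% of tested probes, with means of -5.10 ± 0.25 in hypoxia (SD, n = 3) and -5.82 ± 0.22 in controls (SD, n = 4). The difference was 0.72, or 1.65-fold (SE 0.17, adjusted p = 0.161 in limma). Probe A_70_P041082 stood at -5.43, -5.31 and -5.28 in hypoxia, against -5.54, -5.65, -5.78 and -6.03 in controls, a difference of 0.41 (SE 0.14, adjusted p = 0.247 in limma). The probes share 59 bases, so the second is no independent measurement. Its difference was 0.26 against control slide 2 alone and 0.57 against control slide 3 alone. Both spots were dim, with processed signals of 55.5 to 80.8 in hypoxia and 31.5 to 52.8 in controls, although well above background on all 7 arrays. With normexp background correction the differences were 0.38 and 0.26.

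PTGER2, the EP2 receptor, which also acts through cyclic AMP, was at the edge of detection. Its probe A_70_P031651 was well above background on all 3 hypoxia arrays and on 2 of 4 control arrays. It stood at -6.46, -6.28 and -6.70 in hypoxia, against -7.22, -7.15, -7.63 and -6.55 in controls, where control replicate 4 lay above hypoxia replicate 3. The difference was 0.66 (SE 0.25, adjusted p = 0.277 in limma), and 0.19 with normexp background correction. The other PTGER2 probe, from another record, was not well above background on any array.

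PTGER3 and PTGER1, the EP3 and EP1 receptors, showed little difference. For PTGER3 the level was -2.55, -2.85 and -2.63 in hypoxia, against -2.68, -2.44, -2.93 and -2.52 in controls, and the difference was -0.04, with a 95% interval from -0.38 to 0.31. Its overlapping second probe gave -0.15. For PTGER1 the difference was 0.01, with a 95% interval from -0.27 to 0.28, and 0.07 with its overlapping second probe, with which it correlated at r = 0.234 over the 7 arrays.

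**Figure D4:**
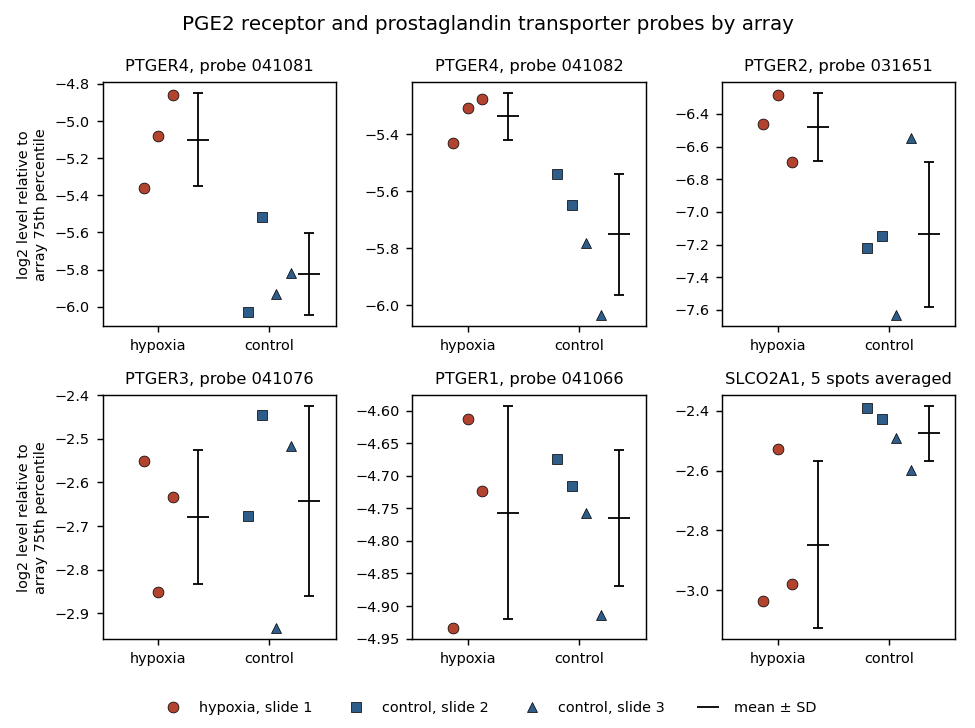
Levels of 5 PGE2 receptor probes and of the transporter SLCO2A1 on each array, as log2 processed signal relative to the array's 75th percentile, with hypoxia fetuses left of control fetuses, symbols for the slide, and mean and SD beside the points. The hypoxia values lie above all control values for both PTGER4 probes, and control replicate 4 joins the hypoxia range for PTGER2.

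SLCO2A1, the transporter that takes prostaglandins up for breakdown, had a level of -3.04, -2.53 and -2.98 in hypoxia, against -2.39, -2.43, -2.49 and -2.60 in controls. Hypoxia replicates 1 and 3 were below all controls, and hypoxia replicate 2 was within their range. The difference was -0.37 (SE 0.15, adjusted p = 0.290 in limma), or 1.29-fold lower. This probe was printed as 5 spots per array, whose SD ran from 0.06 to 0.12. The SD between fetuses was 0.28 in hypoxia and 0.09 in controls. SLCO2A1 is best known in brain in endothelial cells. The endothelial genes PECAM1, KDR, FLT1 and TIE1 all had differences below 0, while 54.7% of all tested probes had differences above 0. They are 4 of 12 listed endothelial and pericyte genes, a list chosen with earlier results of these data known. Each overlapped between the groups, and none had an unadjusted p under 0.05 in limma. Their median difference was -0.29, and none passed the adjusted threshold. The mean level of these genes was -3.84 to -3.34 in hypoxia and -3.45 to -3.10 in controls. Their part in the SLCO2A1 value was not tested.

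ANXA2, a phospholipid-binding annexin, stood at 2.00, 1.93 and 2.21 in hypoxia, against 2.51, 2.24, 2.48 and 2.57 in controls. All hypoxia values were below all control values, as for 7.38% of tested probes, and the difference was -0.40 (SE 0.12, adjusted p = 0.226 in limma). Another 4 probes carry prostaglandin enzymes by their descriptions. CYP4F21, a prostaglandin omega-hydroxylase of sheep, had a difference of -0.13. The probes listed as PGFS gave -0.12 and -1.02, the second being well above background on 3 of 7 arrays and differing by -0.36 without hypoxia replicate 1 and -0.09 with normexp background correction. TC1718, described as like a bovine prostaglandin F synthase, gave 0.35, and its level ran from -8.78 to -5.29. It was well above background on 2 of 3 hypoxia and 2 of 4 control arrays, and its difference was 1.43 against control slide 2 alone, -0.73 against control slide 3 alone and -0.27 without control replicate 1.

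**Figure D5:**
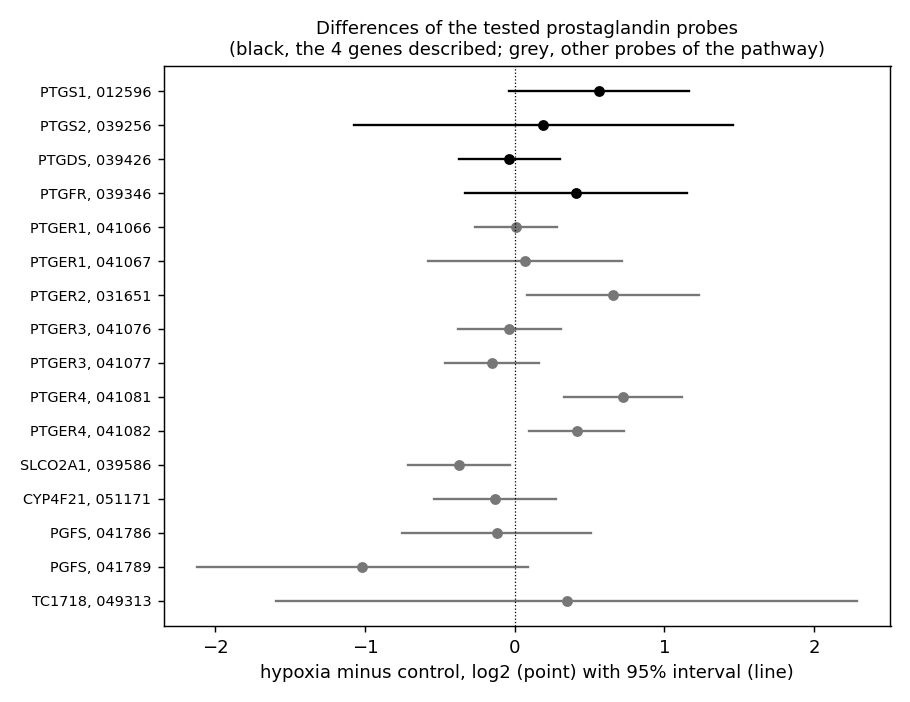
Hypoxia minus control differences (log2, points) with 95% intervals (lines) for the 16 tested prostaglandin probes, the 4 genes first in black and other probes of the pathway in grey, labelled by gene and the last digits of the probe name. Of the 4 genes, all intervals include 0, that of PTGS2 being the widest and that of PTGDS the narrowest.

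Genes known to induce or restrain PTGS2 were listed as well, both kinds together, and chosen with earlier results of these data known. Of 19, 11 were measured and none passed the adjusted threshold. There were 9 of 11 with a difference above 0, against 54.7% of all tested probes, and the median difference was 0.40, against 0.03 for all. TNF and NR3C1 were below 0, with differences of -0.25 and -0.22. Because of how the list was chosen, its counts are not an independent result. At an unadjusted p under 0.05, 3 of the 11 were higher in hypoxia and 0 lower, against 8.75% and 6.91% of all tested probes. NFKBIA, the NF-kB inhibitor that NF-kB itself induces, stood at 1.78, 2.76 and 0.94 in hypoxia, against 0.37, 0.67, 0.43 and 0.24 in controls (adjusted p = 0.197 in limma). NFAT5, a tonicity-responsive transcription factor, had a difference of 0.71, TLR4, the endotoxin receptor, one of 0.39, and CEBPB, a transcription factor that binds the PTGS2 promoter, one of 0.64 (adjusted p = 0.154, 0.278 and 0.330 in limma).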

How the data were processed

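Values are from 1-colour Agilent sheep arrays. Per the file headers, the deposited spot intensity was extracted with Agilent Feature Extraction 10.1.1.1, with spatial and multiplicative detrending within each array and local background correction off. The value table deposited with the series is the log2 of this intensity, equal within 5e-09, with no scaling between arrays. Groups come from the sample titles, and nothing says that equal replicate numbers pair fetuses.

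Control spots and, array by array, spots marked as outliers were dropped, and repeated spots of a probe were averaged. The log2 processed intensity minus each array's 75th percentile was fitted with limma 3.58.1 in R 4.3.3 (lmFit, eBayes, 2-sided). Probes were named through RefSeq accessions, gene IDs, symbols and synonyms of the ARS-UI_Ramb_v3.0 table, and PTGER1 from its description in the files. A gene is represented by its probe of highest mean level. The procedure was tested on simulated data. Genes named were all probes of the 4 genes, measured receptors, up to 4 genes of each pathway list by smallest p, and the 3 genes most like each member, of which 1 is not reported here. CYP4F21, PGFS, TC1718 and the marker genes of single arrays were chosen after values were seen. The genes and lists were chosen with earlier results of these data known. Across arrays the 75th percentile of processed intensity ran from 2024 to 2908, 77.2% to 86.4% of spots were well above background, and the number of arrays limits the precision.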

Additional observations from a re-analysis of the deposited data

Results flagged for a closer look

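The lowest and highest of the 4 control values were examined for 16 prostaglandin probes, and 1 extreme value was found. Chance flags about 1 set in 20, so 1 flag among 16 sets is close to what chance alone gives. The flagged value was PTGDS in control replicate 2, with a level of 6.36, while the remaining 3 controls lay between 5.92 and 5.99. Its gap to the nearest control made up 0.857 of the range of the group, above Dixon's 95% critical value for 4 values. Without that array the PTGDS difference was 0.06.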

How the results depend on the processing

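No prostaglandin probe passed the adjusted threshold under any alternative, over 334 values for 16 probes, of which 303 kept their direction and 31 turned it. Alternatives that change only the filter on dim probes or the estimate of spread repeat the main difference, so they could not turn its direction. The 2 probes past the threshold over the whole array became 0 with quantile normalization, 0 with the 75th percentile over probes well above background on all 7 arrays, 10 with normexp background correction, 0 with no filter on dim probes, 25 when only probes detected on every array were fitted, 232 against control slide 2 alone, 4 against control slide 3 alone, 57 with a trended and robust prior, 4 with array weights, and 0 to 6 with 1 array left out. The deposited value table, which is not scaled between arrays, gave 3, and its unadjusted calls were split 656 higher and 319 lower, against 1112 and 878 with scaling. Scaling to the median gave 932 and 1069. Against control slide 3 alone, PTGS2 was -0.44, PTGDS 0.0728, PTGER3 probe A_70_P041076 0.0461 and TC1718 -0.73. Against control slide 2 alone, the PTGER1 probes were -0.0614 and -0.19, CYP4F21 0.0381 and PGFS probe A_70_P041786 0.28. The PTGER1 probes were -0.10 and -0.0606 with quantile normalization, and the first was -0.0234 with median scaling. PTGER3 probe A_70_P041076 was 0.00014 in the deposited table and 0.011 with array weights. With 1 array left out, PTGS2 ran from -0.14 to 0.69, PTGDS from -0.11 to 0.0633, the PTGER1 probes from -0.0636 to 0.10 and from -0.18 to 0.21, PTGER3 probe A_70_P041076 from -0.13 to 0.0497, PGFS probe A_70_P041786 from -0.31 to 0.09 and TC1718 from -0.27 to 0.97. The cause of these changes was not tested. Equal replicate numbers showed correlations of 0.121, 0.088 and 0.107 between deviations, each hypoxia array being most like the control of its own number, which is a hint from the data and not the design. With the replicate block, 0 probes passed, and PTGER1 probe A_70_P041066 was -0.0408, PTGER3 probe A_70_P041076 0.0064 and PGFS probe A_70_P041786 0.09. With 3 and 4 arrays, and with PTGER2 and the second PTGS2 probe near background, small differences could not be resolved.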
